A study of Mus musculus with 15 samples.

Results

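Complex I (NADH:ubiquinone oxidoreductase) is described here through its nuclear genes in the trigeminal ganglion of mice recovering from a corneal injury. The members were the rows of the deposited count table whose gene identifier belongs to a protein-coding gene with a symbol starting in Nduf. This rule gave 46 of the 55573 rows, on 17 chromosomes. Of the 46 genes, 36 encode subunits of complex I (7 core catalytic subunits, 9 accessory subunits of the matrix arm, 19 of the membrane arm and the acyl carrier protein Ndufab1). A further 8 encode assembly factors of the Ndufaf series, and 2 carry the Nduf name without being complex I subunits (Ndufa4, a subunit of cytochrome c oxidase, and its relative Ndufa4l2). The rule uses names and gene types and no expression value, though it was set with earlier results of these data known.

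The study measured mRNA in the right trigeminal ganglion (TG), the ganglion that holds the cell bodies of the sensory neurons innervating the cornea, by Smart-seq2 RNA sequencing. All 15 ganglia came from 10-week-old male CD1 mice whose right cornea had been wounded with a 2-mm trephine, with removal of the epithelium and the anterior stroma, and all were taken on day 12. The 3 groups of 5 libraries differed in the eye drop given 3 times a day: vehicle, RvD6 (labelled RvD6-standard) or its stereoisomer RvD6si (labelled RvD6-isomer). RvD6 is resolvin D6, a hydroxylated derivative of the omega-3 fatty acid docosahexaenoic acid, and RvD6si was obtained from biological material rather than by synthesis. No uninjured ganglion is among these libraries, so every level below is that of an injured animal, and the doses of the lipids are not given in the sources used here. A mouse has 1 right ganglion and the study's methods give 5 ganglia a group, so each library was taken as a separate mouse, which the labels do not state. Libraries are named by group and replicate number (vehicle 1 to 5, RvD6 6 to 10, RvD6si 11 to 15).

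Complex I is the entry point of the respiratory chain. It takes electrons from NADH through a flavin and a chain of iron-sulphur clusters in its matrix arm, passes them to ubiquinone, and uses the released energy to pump protons through its membrane arm. The catalytic work is done by core subunits conserved from bacteria, some encoded in the nucleus and the membrane pumps encoded in mitochondrial DNA, while the accessory subunits surround and stabilise them and the assembly factors help to build the complex without remaining in it. Sensory neurons, with long axons and a high demand for ATP, depend on this pathway.

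Total counts ran from 4125962 (RvD6si 15) to 9903396 (vehicle 1), and complex I genes took 0.380% to 0.612% of them. All 12 sensory neuron markers were detected in every library, with summed normalised counts of 42705 to 50687 in vehicle, 23538 to 42456 in RvD6 and 36887 to 46982 in RvD6si. Markers of other tissues were uneven. The 14 skeletal muscle markers summed to 16617 in RvD6 8 and 25683 in RvD6 9 against at most 3162 elsewhere, with Atp2a1, Cox6a2, Cox8b, Myh2, Myl1 and Tnni2 at 0 in some libraries. The 5 erythroid markers, none at 0, summed to 17123 to 36168 in vehicle, to 41369 to 76006 in RvD6, and in RvD6si to 85801 in replicate 15 but 6776 to 18926 in the other 4. The 8 neutrophil precursor markers, of which Elane was at 0 in some libraries, followed the same split (4977 to 16338 in RvD6, 13943 in RvD6si 15 and at most 4172 elsewhere). In whole ganglia, fewer cells of a type and less RNA per cell cannot be told apart.

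In vehicle ganglia, complex I genes spanned a wide range of levels. On the scale of normalised counts per kilobase of exon, the core catalytic genes had a median of 1138, the membrane-arm accessory genes 594, the matrix-arm accessory genes 410 and the assembly factors 138. Among core genes, Ndufv2 stood at 1327 ± 186 (SD, n = 5) and Ndufs7 at 1280 ± 92.1 per kilobase, while Ndufs1, the largest iron-sulphur subunit, was lowest at 188 ± 25.1. Among accessory genes the matrix arm ran from Ndufa2 (962 ± 81.9) to Ndufv3 (160 ± 17.9), and the membrane arm from Ndufb9 (1379 ± 102) to Ndufb2 (31.3 ± 3.84). Among assembly factors the highest was Ndufaf5 (291 ± 48.3) and the lowest Ndufaf2 (59.0 ± 13.0). The highest member of all was Ndufa4, at 1744 ± 145 per kilobase, and its relative Ndufa4l2 was close to absent at 1.17 ± 0.823. Several neighbours in this order did not differ beyond their spread: Ndufb9, Ndufs7 and Ndufa10 (1219 ± 142) all lay within 1 SD of Ndufv2. The level per kilobase is lowered where the annotated exons add up to far more than the usual transcript, which may concern Ndufs1 (8086 bases), Ndufab1 (6883 bases) and Ndufb2 (5628 bases). The exons of 19 members overlap those of another gene, 17 of them on the opposite strand and 3 on the same strand, and the library method does not keep the strand, so reads of such pairs (Ndufs3 with Kbtbd4, Ndufb9 with Gm49356) cannot be fully separated.

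Promoters of the members were described by features that the rule did not use. RefSeq windows of 300 bases (250 before and 50 after the start, build GRCm38.p6) were given for 40 of the 46 genes, in 42 windows; those without one include Ndufa2, Ndufa4l2, Ndufaf6, Ndufb9 and Ndufs1. The median GC content of these windows was 59.3%, against 52.7% over all 32851 RefSeq windows, with a median of 20.5 CpG dinucleotides against 7. All windows together cover 27025 genes and were not limited to genes expressed in the ganglion. The start of a protein-coding gene on the opposite strand fell within 13 of the 42 windows (31%), against 5.71% of all windows. Partners were for example Rps28 for Ndufa7, which entered with more than 1 window, Cebpz for Ndufaf7, Kbtbd4 for Ndufs3 and Mrpl36 for Ndufs6. A total of 5 motifs were searched on both strands. The palindromic 10-letter NRF1 consensus was in 3 member windows (7.14%, all windows 0.971%), of Ndufa11, Ndufaf4 and Ndufaf5. The 11-letter YY1 consensus was in 5 (11.9%, all windows 0.633%), of Ndufa9, Ndufaf8, Ndufs4, Ndufs6 and Ndufs7, and the ETS motif CCGGAAG in 6 (14.3%, all windows 8.86%), Ndufs3 and Ndufs8 among them. The estrogen-related receptor motif TCAAGGTCA was in none (all windows 0.423%), and the SP1 motif GGGCGG was in 22 (52.4%, all windows 35.7%). These matches describe letters in the windows and say nothing of whether a factor binds there.

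The stretches upstream of the start are printed for 5 of the genes whose values are followed below, as the longest run of at least 100 bases without an annotated exon (GENCODE M21). Capitals mark a match to 1 of the 5 motifs on either strand, and the sequence reads 5′ to 3′ towards the gene.

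Ndufa10 chr1:92473861-92474008 (- strand): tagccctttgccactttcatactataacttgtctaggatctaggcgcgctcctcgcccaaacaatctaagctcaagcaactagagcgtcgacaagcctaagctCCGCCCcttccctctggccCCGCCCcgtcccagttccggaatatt
Ndufs7 chr10:80249205-80249311 (+ strand): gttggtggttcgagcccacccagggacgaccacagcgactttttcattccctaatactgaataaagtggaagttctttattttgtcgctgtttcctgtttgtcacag
Ndufs8 chr19:3912775-3913024 (- strand): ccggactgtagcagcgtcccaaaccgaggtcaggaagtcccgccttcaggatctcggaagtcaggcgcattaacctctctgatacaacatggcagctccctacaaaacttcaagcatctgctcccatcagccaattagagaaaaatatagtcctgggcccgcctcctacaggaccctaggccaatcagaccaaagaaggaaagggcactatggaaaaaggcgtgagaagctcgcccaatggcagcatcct
Ndufv1 chr19:4012807-4013005 (- strand): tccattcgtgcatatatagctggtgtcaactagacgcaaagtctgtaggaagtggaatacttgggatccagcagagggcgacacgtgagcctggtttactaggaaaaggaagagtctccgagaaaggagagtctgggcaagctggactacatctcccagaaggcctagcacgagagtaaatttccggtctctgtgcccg
Ndufv2 chr17:66101560-66101809 (- strand): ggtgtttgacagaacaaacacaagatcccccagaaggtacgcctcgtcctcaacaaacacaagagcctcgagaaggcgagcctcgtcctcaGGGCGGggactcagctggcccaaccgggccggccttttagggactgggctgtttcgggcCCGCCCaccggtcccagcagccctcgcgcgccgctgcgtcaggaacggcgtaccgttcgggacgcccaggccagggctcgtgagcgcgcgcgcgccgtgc

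The stretch of Ndufa10 holds a pair of SP1 matches, both as the reverse complement CCGCCC, 147 to 142 and 128 to 123 bases before the RefSeq start, and that of Ndufv2 has 1 in each orientation. The stretches of Ndufs7, Ndufs8 and Ndufv1 hold none of the 5 motifs. The YY1 match of Ndufs7 and the ETS match of Ndufs8 are in their windows but not within the printed stretches. The Ndufs7 stretch lies between annotated exons of a longer GENCODE model, so the RefSeq start is not the only one recorded for this gene.

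The first comparison asked how RvD6si changed the ganglion relative to vehicle. Most complex I genes had lower values in RvD6si: the median log2 fold change of the 45 members that passed the filter was -0.39, against 0.02 over all 16567 genes tested, and 42 of the 45 values were below 0 (48.8% over all genes). None of the 45 passed edgeR's quasi-likelihood test after Benjamini-Hochberg adjustment over all genes, a threshold that 0.525% of all genes passed in the higher and 0.145% in the lower direction. At an unadjusted p under 0.05, 22 of the 45 were lower and 0 higher, where 7.3% of all genes were lower and 8.69% higher. DESeq2 on the same 15 libraries called 7 members lower and 0 higher (all genes 3.3% lower and 4.82% higher): Ndufs7, Ndufs8, Ndufs3, Ndufv2, Ndufa9, Ndufb9 and Ndufa10. The unadjusted count rested in part on single libraries, with 14 lower without RvD6si 11 (all genes 5.37% lower) and 27 without RvD6si 12 (7.27%). The plot of every gene by library shows that the lower values were unevenly spread, with the lowest in RvD6si 11.

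**Figure D1:**
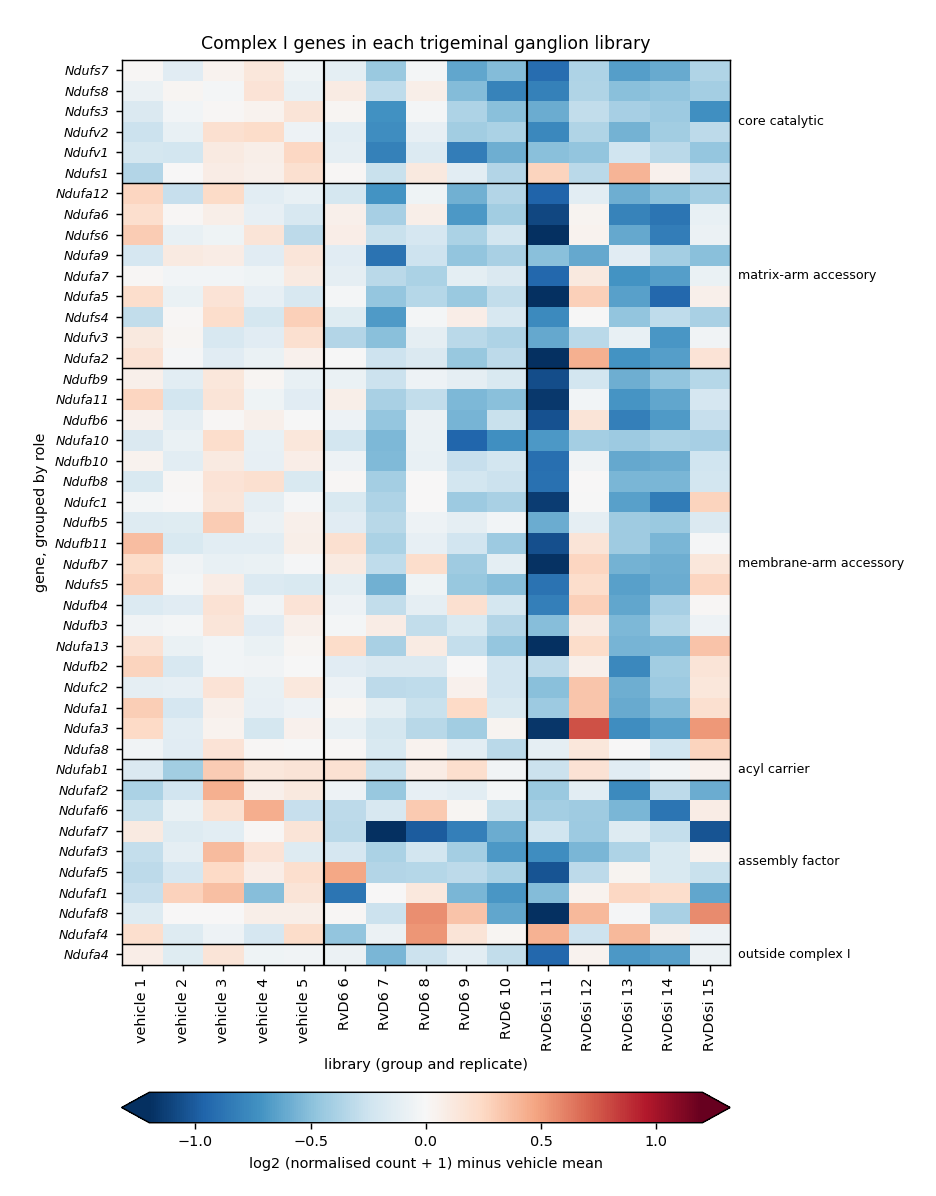
Each row is 1 of 44 complex I genes tested, grouped by role, and each column 1 library; colour gives log2 (normalised count + 1) minus the mean of the 5 vehicle libraries (blue lower, red higher, scale ending at -1.2 and 1.2). RvD6si 11, 13 and 14 are blue in nearly all rows, while RvD6si 12 and 15 are blue in the core catalytic rows and mixed in the accessory rows.

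Core catalytic genes of the nucleus carry the flavin site and the iron-sulphur clusters. Of the 7, 6 were lower at an unadjusted p under 0.05 and 5 had RvD6si libraries that all lay below the lowest vehicle library; their median log2 fold change was -0.49. Ndufs7, the subunit that holds the last iron-sulphur cluster before ubiquinone (chr10:80249121-80256794, plus strand, build GRCm38), had the smallest p of all members. Its normalised counts were 2221, 1991, 2261, 2412 and 2113 in vehicle and 1168, 1703, 1385, 1447 and 1713 in RvD6si. The groups did not overlap, with replicates 12 and 15 highest among the RvD6si libraries. The fold change was -0.57 on the log2 scale (SE 0.14, edgeR adjusted p = 0.0637; DESeq2 adjusted p = 0.00403). Its edgeR adjusted p was 0.0389 when only genes with at least 10 counts in every library were tested, and 0.0384 with the trend on GC content removed. With the trend on gene length removed it was 0.135. With 1 library left out it ran from 0.0442 (without RvD6 9) to 0.181, and 1 of the 15 fits passed the threshold.

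Ndufs8, which carries a pair of iron-sulphur clusters (chr19:3908863-3912774, minus strand), counted 1392, 1492, 1439, 1639 and 1383 in vehicle and 838, 1142, 1033, 1054 and 1107 in RvD6si. Its log2 fold change was -0.51 (SE 0.16, edgeR adjusted p = 0.12). Ndufs3, a subunit of the arm that links the clusters to the ubiquinone site (chr2:90894634-90904827, minus strand), counted 746, 819, 849, 864 and 933 in vehicle and 555, 684, 636, 619.7 and 504 in RvD6si, a log2 fold change of -0.49 (SE 0.15, edgeR adjusted p = 0.119). Both genes were lower in 5 of 5 RvD6si libraries than in any vehicle library.

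Ndufv1 and Ndufv2 form the NADH-oxidising tip with the flavin. Ndufv2 (chr17:66078638-66101559, minus strand) counted 2359, 2663, 3229, 3292 and 2707 in vehicle and 1652, 2204, 1914, 2115 and 2268 in RvD6si, with a log2 fold change of -0.49 (SE 0.14, edgeR adjusted p = 0.101). Ndufv1 (chr19:4007384-4012806, minus strand) counted 2499, 2481, 3121, 3031 and 3443 in vehicle and 2035, 2086, 2447, 2304 and 2090.4 in RvD6si, with a log2 fold change of -0.41 (SE 0.16, edgeR adjusted p = 0.194). The groups were separate for both, although for Ndufv1 the highest RvD6si library (13) came close to the lowest vehicle library (2).

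Ndufs1 was the exception among core genes. It counted 1188, 1514, 1609, 1582 and 1727 in vehicle and 1820.5, 1208, 2013, 1569.5 and 1248 in RvD6si, where replicates 11 and 13 were above and 12 and 15 near the bottom of the vehicle range. The log2 fold change was 0.04 (95% interval -0.29 to 0.37, edgeR adjusted p = 0.932), and it was -0.11 once the trend on gene length was removed.

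**Figure D2:**
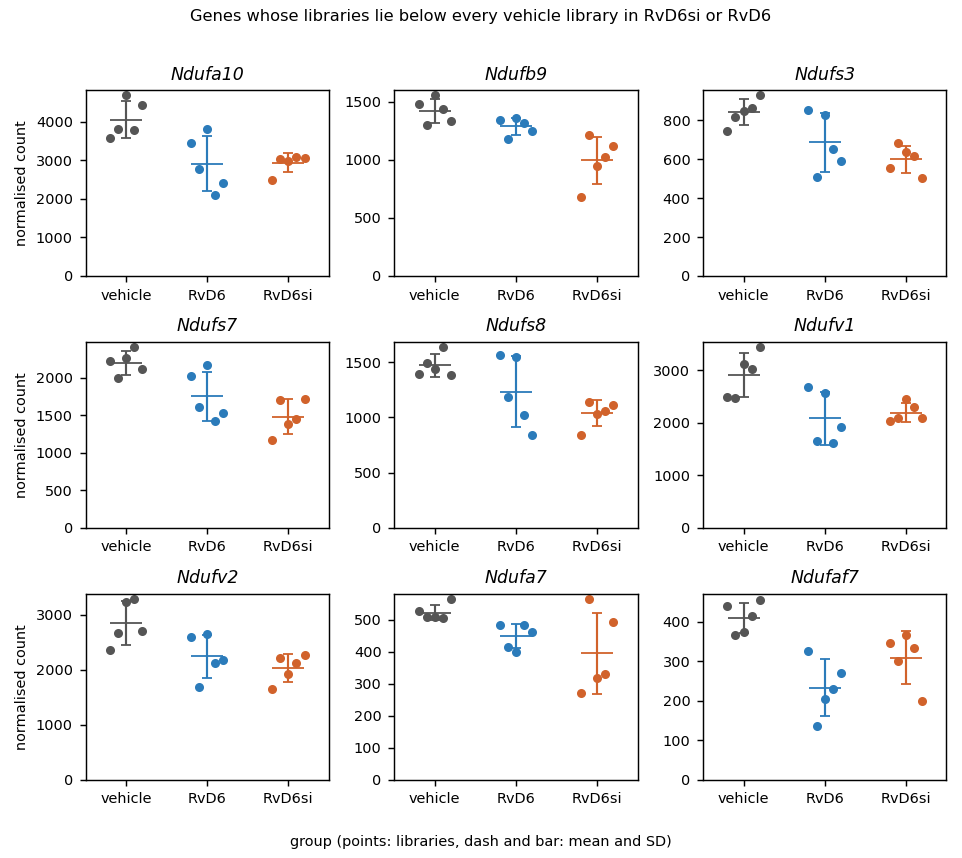
Normalised counts of the 9 genes whose 5 RvD6si or 5 RvD6 libraries all lie below the 5 vehicle libraries (points are libraries, dashes means and bars SD, n = 5 a group, y axes from 0). For Ndufs7 the vehicle libraries sit between 1991 and 2412 and the RvD6si libraries between 1168 and 1713.

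In total 7 members had RvD6si libraries that were all below the vehicle libraries and 0 all above, where 2.46% of all genes tested were separated in this way in the lower and 2.45% in the higher direction. Beside the 5 core genes these were Ndufa10 and Ndufb9, both accessory subunits of the membrane arm. Ndufa10, a subunit bound to the matrix face of that arm (chr1:92439010-92473860, minus strand), counted 3575, 3819.6, 4692, 3793 and 4429.7 in vehicle and 2500.4, 3049.6, 2980.2, 3099.7 and 3069 in RvD6si. The RvD6si libraries were tightly grouped, apart from replicate 11, and the log2 fold change was -0.47 (SE 0.15, edgeR adjusted p = 0.131; DESeq2 adjusted p = 0.0394). Ndufb9 (chr15:58933756-58939488, plus strand) counted 1482, 1301, 1554, 1439.5 and 1333 in vehicle and 676, 1215, 945, 1023 and 1118 in RvD6si, with a log2 fold change of -0.52 (SE 0.14, edgeR adjusted p = 0.0804; DESeq2 adjusted p = 0.00807).

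Accessory genes of the matrix arm were all lower on average, with a median log2 fold change of -0.41 and 7 of 9 at an unadjusted p under 0.05, but none was separate between groups. Ndufa9, a subunit of the ubiquinone-binding region, was below every vehicle library in 4 of 5 RvD6si libraries (1176 ± 154 against 1584 ± 169, log2 fold change -0.43, SE 0.15, edgeR adjusted p = 0.149, DESeq2 adjusted p = 0.0455). Ndufa7 counted 526, 509, 509, 505 and 564 in vehicle and 271, 566, 318, 329 and 494 in RvD6si, so that replicate 12 was just above the highest vehicle library while 11, 13 and 14 were far below (log2 fold change -0.41, SE 0.18, edgeR adjusted p = 0.267).

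The membrane arm showed the widest spread among RvD6si libraries. Its 19 accessory genes had a median log2 fold change of -0.31, and 7 of them were lower at an unadjusted p under 0.05. The small subunit gene Ndufa3 counted 161, 125, 139.6, 117 and 141 in vehicle and 59.9, 232, 80.3, 85.9 and 195 in RvD6si. Here replicates 12 and 15 were above all vehicle libraries and 11, 13 and 14 below all of them, with a log2 fold change of -0.07 (95% interval -0.72 to 0.57). Ndufa8, a subunit on the intermembrane side, did not follow its neighbours (799.5 ± 109 in RvD6si and 788 ± 60.4 in vehicle, log2 fold change 0.01, 95% interval -0.25 to 0.28, edgeR adjusted p = 0.972). Ndufab1, the mitochondrial acyl carrier protein, lay within the vehicle range in all RvD6si libraries (387 ± 44.2 against 403 ± 77.6, log2 fold change -0.06).

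The split between core and accessory genes can be followed library by library. Counting genes below all 5 vehicle libraries, RvD6si 11, 13 and 14 had 27, 25 and 28 of the 28 matrix- and membrane-arm accessory genes there, whereas RvD6si 12 and 15 had 4 and 10, with 9 and 4 above all vehicle libraries. Over all genes tested, the share below all vehicle libraries was between 18.1% and 27% in each RvD6si library. The share above all vehicle libraries was 25.2% in RvD6si 12 and 22% in RvD6si 15. The core genes showed no such split, with 5 or 6 of 7 below all vehicle libraries in each of the 5. The median core gene stood at -0.61, -0.38, -0.39, -0.42 and -0.41 on the log2 scale relative to the vehicle mean in RvD6si 11 to 15, whereas the median membrane-arm gene stood at -0.91, 0.12, -0.58, -0.55 and 0.01. The split of the accessory genes was not particular to complex I. Summed normalised counts of nuclear complex IV genes were 8772, 10395 and 10230 in RvD6si 11, 13 and 14. They were 16391 in RvD6si 12 and 14641 in RvD6si 15, against 14321 to 16826 in vehicle. The sums of complexes II, III and V did not split in this way.

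**Figure D3:**
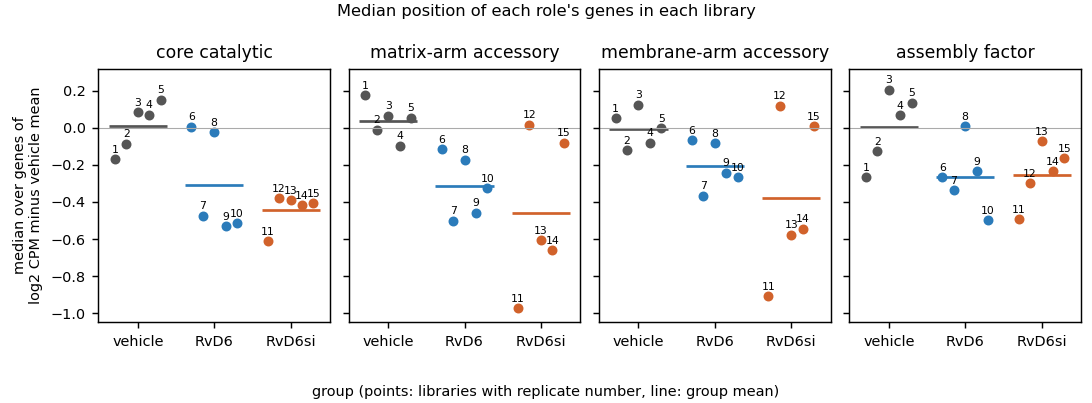
Each point is 1 library, labelled with its replicate number, at the median over the genes of a role of log2 CPM (counts scaled to library size) minus the vehicle mean; lines are group means. Core catalytic genes are lower in all 5 RvD6si libraries (-0.61 to -0.38), while both accessory classes are low in RvD6si 11, 13 and 14 and near the vehicle libraries in 12 and 15.

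RvD6si 11, 13 and 14 were also the libraries with the lowest erythroid marker sums (6776, 9734 and 9224, against 18926 in RvD6si 12 and 85801 in RvD6si 15), below all vehicle libraries. In RvD6si 11, 13 and 14 the sensory neuron marker sums were 36887, 46982 and 44042, against 42705 to 50687 in vehicle. RvD6si 11, 12 (40577) and 15 (40806) thus lay below all vehicle libraries. Satellite glia and Schwann cell marker sums of RvD6si 11, 13 and 14 lay within the vehicle range (4587 to 4743 and 109348 to 151706). With an erythroid score as a covariate, chosen after the data had been seen, 20 of the 45 members were lower and 0 higher at an unadjusted p under 0.05 (all genes 7.15% lower and 7.16% higher), and the median log2 fold change was -0.32. The part of the cell mixture in the difference between libraries was not tested.

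Among assembly factors the difference from vehicle was less regular. The median log2 fold change of the 8 genes was -0.35, and 1 was lower at an unadjusted p under 0.05: Ndufaf2, which acts late in assembly (128 ± 22.01 in RvD6si and 176 ± 38.7 in vehicle, log2 fold change -0.46, SE 0.20, edgeR adjusted p = 0.257). Ndufaf4, another assembly factor, was the member with the highest value (332 ± 65.9 against 304 ± 41.8, log2 fold change 0.12, 95% interval -0.28 to 0.53). Outside the complex, Ndufa4 had the accessory pattern, with 2540.0, 2165.6, 2675, 2324 and 2337 in vehicle and 1252, 2481, 1492, 1530.2 and 2284 in RvD6si (log2 fold change -0.42, SE 0.17, edgeR adjusted p = 0.223). Ndufa4l2 had 33 counts in all 15 libraries together and was not tested.

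The second comparison set RvD6 against the same 5 vehicle libraries, so the values of both lipids share their controls and are given side by side rather than compared through them. The median log2 fold change of the 45 members was -0.23 (all genes 0.02), with 42 of 45 below 0 (47.8% over all genes). edgeR called 0 members and 0% of all genes in either direction. At an unadjusted p under 0.05, 8 members were lower and 0 higher (all genes 5.99% lower and 7.63% higher): Ndufaf7, Ndufa10, Ndufv1, Ndufa9, Ndufv2, Ndufs7, Ndufv3 and Ndufaf3. DESeq2 called 1 member, Ndufaf7, lower (all genes 0.479% lower and 1.44% higher). The unadjusted count was 4 lower without RvD6 7 (all genes 4.59% lower) and 12 without RvD6 6 (6.89%). Erythroid marker sums were higher in all 5 RvD6 libraries (41369 to 76006) than in any vehicle library (17123 to 36168), and with the erythroid score as a covariate 24 members were lower and 0 higher at an unadjusted p under 0.05 (all genes 5.15% lower and 6.62% higher), with a median log2 fold change of -0.46.

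Ndufaf7, a methyltransferase that acts early in assembly (chr17:78937136-78948052, plus strand), gave the largest fold change of any member in this comparison. It counted 439.8, 367, 376, 414 and 455 in vehicle, 326, 135, 205, 231 and 271 in RvD6, and 346, 302, 368, 334 and 198 in RvD6si. Every RvD6 library was below every vehicle library, and the RvD6si libraries overlapped both groups. The overlap with vehicle was narrow and came from RvD6si 13 alone (367.9, against 367.5 in vehicle 2). With the trend on gene length removed, or counts thinned to the lowest library total, all RvD6si libraries were below the vehicle libraries. The log2 fold change from vehicle was -0.82 in RvD6 (SE 0.21, edgeR adjusted p = 0.138; DESeq2 adjusted p = 0.0227) and -0.41 in RvD6si (SE 0.21, edgeR adjusted p = 0.362).

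Only Ndufa7 was separate in RvD6 beside Ndufaf7 (2 members, where 1.62% of all genes were separate in the lower direction and 2.15% in the higher), with 484, 416, 401, 482 and 462 against a lowest vehicle value of 505 and a log2 fold change of -0.23 (SE 0.18, edgeR adjusted p = 0.602). For the core genes the RvD6 libraries split into replicates 7, 9 and 10, where the median core gene stood at -0.48, -0.53 and -0.51 relative to the vehicle mean, and replicates 6 and 8, where it stood at 0.01 and -0.02. Ndufa10 had the same split, with 3457, 2785, 3826, 2091 and 2425 in RvD6 6 to 10 (log2 fold change -0.49, SE 0.15, edgeR adjusted p = 0.19). Ndufv1 counted 2675, 1647, 2574, 1621 and 1927 (log2 fold change -0.49, SE 0.16, edgeR adjusted p = 0.191). The sensory neuron marker sums were 39119, 37488, 42456, 23538 and 30114 in RvD6 6 to 10. These sums were highest in RvD6 8 and 6 and lowest in RvD6 9 and 10, with RvD6 7 in between and nearer to RvD6 6. All 5 sums lay below the lowest vehicle sum (42705). RvD6 9, the lowest library for both genes, also had the highest skeletal muscle sum (25683). The part of the cell mixture in these values was not tested. Without RvD6 8 and 9, a choice made after seeing the data, 8 members were lower at an unadjusted p under 0.05 (all genes 5.13% lower) and the median log2 fold change was -0.27. The 3 members with a value above 0 in RvD6 were Ndufaf8 (98.2 ± 31.2 against 93.9 ± 5.80, log2 fold change 0.05), Ndufaf4 (317 ± 80.2 against 304 ± 41.8, 0.04) and Ndufab1 (409 ± 52.5 against 403 ± 77.6, 0.01), and each changed sign under some of the alternative settings.

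**Figure D4:**
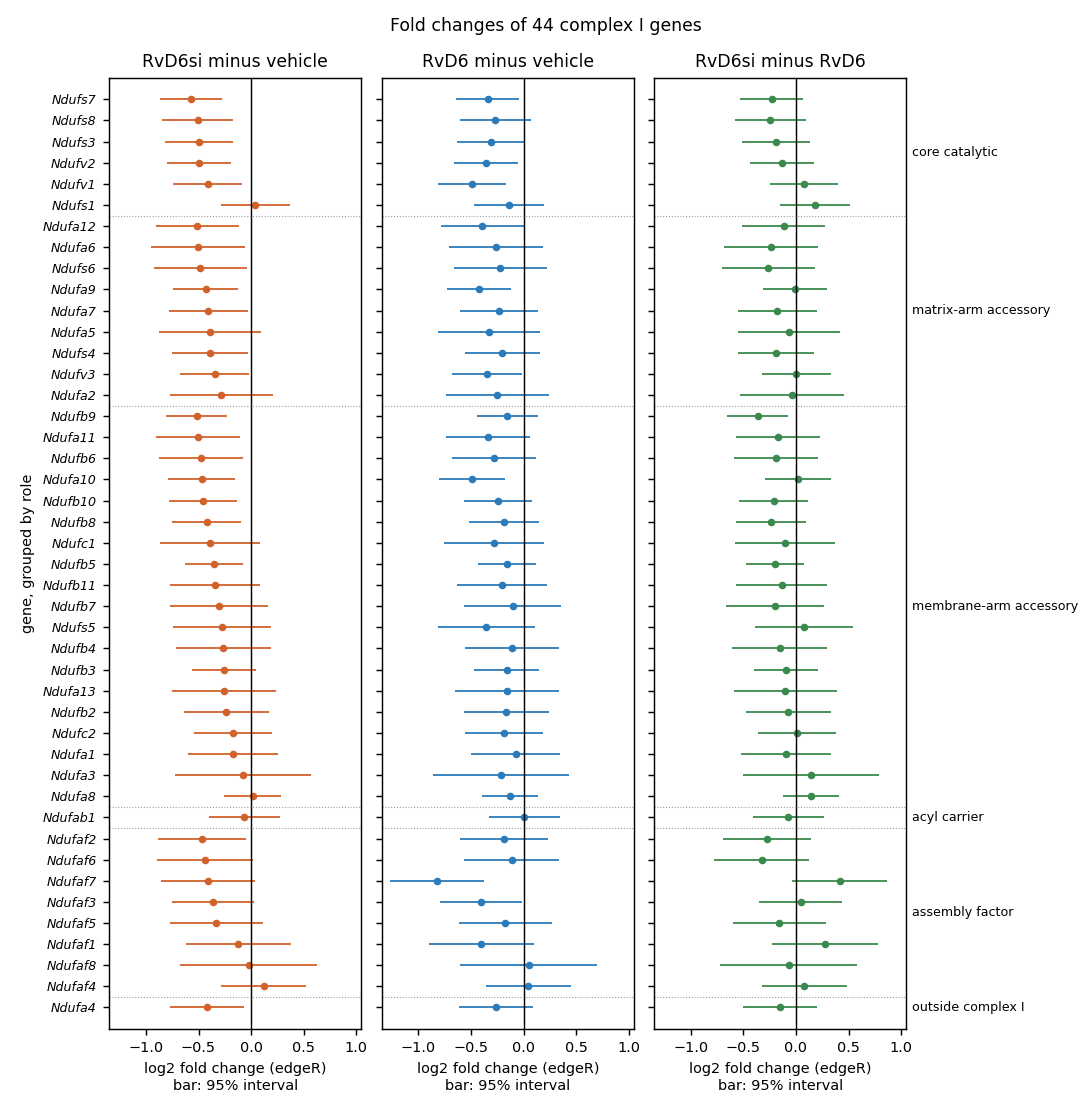
Log2 fold changes of 44 of the genes tested (points) with 95% intervals (bars) from edgeR, for RvD6si minus vehicle, RvD6 minus vehicle and RvD6si minus RvD6, n = 5 libraries a group. In the first panel 21 of these intervals lie wholly below 0, in the second 8, and in the third 1.

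The third comparison set the stereoisomers directly against each other, the 1 pair of compounds in the series, given on the same schedule. RvD6si and RvD6 differ in the arrangement of groups in space and not in their atoms or bonds. The median log2 fold change of the 45 members, RvD6si minus RvD6, was -0.10 (all genes 0.00). Its direction turned with the erythroid score as a covariate, to 0.12, and with the muscle score, to 0.0229. edgeR called 0 members (all genes 0.223% lower and 0.0121% higher), as did DESeq2 (all genes 0.678% lower and 0.258% higher). At an unadjusted p under 0.05, 1 member was lower and 0 higher (all genes 4.64% lower and 4.18% higher), and 0 were separate between the groups (all genes 1.1% lower and 0.712% higher). That member was Ndufb9, at 676 to 1215 in RvD6si and 1183 to 1358 in RvD6, with a log2 difference of -0.36 (95% interval -0.66 to -0.07, edgeR adjusted p = 0.428). Without RvD6si 12, 4 members were lower and 0 higher at an unadjusted p under 0.05 (all genes 5.31% lower and 5.33% higher). The largest difference in the other direction was that of Ndufaf7 (0.42, 95% interval -0.03 to 0.87, edgeR adjusted p = 0.603). For Ndufa10 the difference was 0.02 (95% interval -0.30 to 0.34) and for Ndufs7 -0.23 (95% interval -0.53 to 0.07). Among assembly factors, Ndufaf6 differed by -0.33 (95% interval -0.78 to 0.13) and Ndufaf1 by 0.28 (95% interval -0.23 to 0.78). Intervals were between 0.54 and 1.30 log2 units wide over the 45 genes, about as wide as against vehicle (0.54 to 1.30), and a p that misses the threshold does not show that the lipids act alike.

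The members are short genes, and length moved with the libraries. Their median exonic length was 1718 bases, against 3968 over all genes tested, and 88.9% of them were shorter than that. The slope of log2 CPM on log2 length, relative to the mean library, ran from -0.107 to 0.00479 in vehicle, from -0.0704 to 0.0834 in RvD6 and from -0.00793 to 0.141 in RvD6si, highest in RvD6si 11. With each library's smooth trend on length removed, the median log2 fold change of the 45 members was -0.23 for RvD6si and -0.14 for RvD6. The count at an unadjusted p under 0.05 went from 22 to 13 lower and 1 higher (Ndufa8) for RvD6si (all genes 6.32% lower and 7.51% higher), and from 8 to 4 lower and 0 higher for RvD6 (all genes 5.76% lower and 7.06% higher). Between the lipids it was 1 lower (Ndufb9) and 1 higher (Ndufa8) (all genes 4.89% lower and 4.23% higher). After adjustment 0 members passed in any of the 3 comparisons, where 0.266% of all genes were higher and 0.115% lower for RvD6si, 0.00604% higher and 0% lower for RvD6, and 0.00604% higher and 0.211% lower between the lipids. Of the core genes, 5 of 7 remained among the 13. Ndufs7 stood at -0.40 (edgeR adjusted p = 0.135) and the longer Ndufa10 at -0.48 (edgeR adjusted p = 0.125), whereas Ndufb9 went to -0.31.

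**Figure D5:**
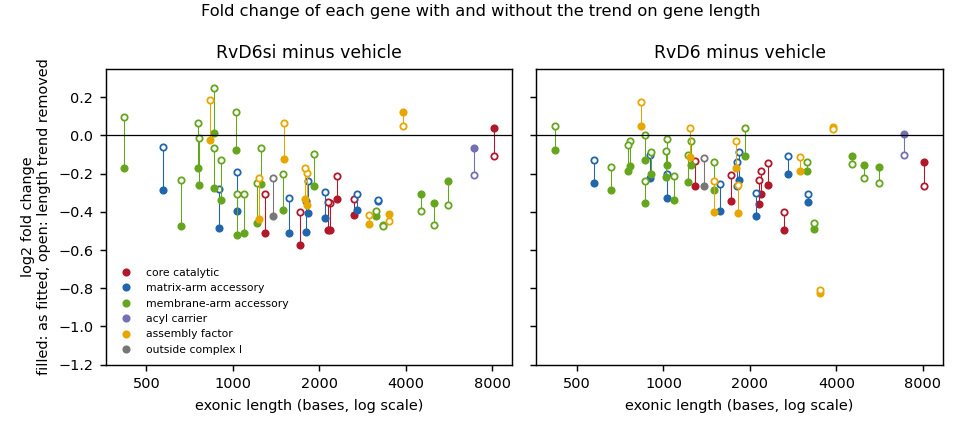
Log2 fold change of each gene against its exonic length (log axis), as fitted (filled) and with each library's trend on gene length removed (open), for RvD6si and RvD6 minus vehicle; colours give the role. For RvD6si, genes shorter than Ndufa10 (3331 bases) move up and longer genes move down, with the median going from -0.39 to -0.23 for RvD6si.

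The other genes of the pathway were read from lists by counts. The 7 mitochondrially encoded subunits (mt-Nd1 to mt-Nd6 and mt-Nd4l), which form the proton-pumping core, did not pass edgeR's adjusted threshold in any comparison. At an unadjusted p under 0.05, 2 were lower and 0 higher in RvD6si than in vehicle (all genes 7.3% lower and 8.69% higher), 0 lower and 3 higher in RvD6 than in vehicle (all genes 5.99% lower and 7.63% higher), and 6 lower and 0 higher in RvD6si than in RvD6 (all genes 4.64% lower and 4.18% higher), shares that also hold for the lists that follow. The smallest p between the lipids was that of mt-Nd5, with a log2 difference of -0.50 (SE 0.11, edgeR adjusted p = 0.0603, DESeq2 adjusted p = 0.00174), and in RvD6 against vehicle it was the 1 mitochondrially encoded gene that DESeq2 called (log2 fold change 0.42, DESeq2 adjusted p = 0.0153). Of 12 assembly factors outside the Nduf series, 1 was higher in RvD6si (Dmac1, log2 fold change 0.61, SE 0.29, edgeR adjusted p = 0.312) and 2 were lower in RvD6 (Ecsit, log2 fold change -0.64, SE 0.18, edgeR adjusted p = 0.174, DESeq2 adjusted p = 0.0455, and Timmdc1) at an unadjusted p under 0.05. The 38 nuclear subunits of complexes II to V had medians of -0.33 in RvD6si and -0.27 in RvD6, with 17 and 8 lower and 1 and 1 higher, the higher one being Sdhd of complex II in both. The smallest p there in RvD6si was that of Cox6b1, a complex IV subunit (log2 fold change -0.64, SE 0.15, edgeR adjusted p = 0.0611, DESeq2 adjusted p = 0.00345). DESeq2 called 7 of the 38 lower and 0 higher in RvD6si (Cox6b1, Cox5b, Uqcrh, Atp5c1, Atp5g1, Atp5j and Atp5o), where it called 3.3% of all genes lower and 4.82% higher. In RvD6 it called 0 of the 38 (all genes 0.479% lower and 1.44% higher). Of 8 regulators of mitochondrial gene expression, 1 was lower in RvD6si (Tfb2m, a factor for transcription of mitochondrial DNA, log2 fold change -0.52, SE 0.23, edgeR adjusted p = 0.27), none passed in RvD6, and Ppargc1a, a coactivator of mitochondrial biogenesis, was higher in RvD6si than in RvD6 (log2 difference 0.61, SE 0.24, edgeR adjusted p = 0.455).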

How the data were processed

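The authors deposited 1 table of raw counts, whole numbers of reads per gene, for 15 right trigeminal ganglia (5 vehicle, 5 RvD6 and 5 RvD6si). Per the labels and the study's methods, reads from unstranded Smart-seq2 libraries were aligned to GRCm38 with Rsubread and counted with featureCounts against GENCODE M22. The submitters' processing notes name Subread 1.6.5 and R 3.6.1, while the file header names featureCounts 1.5.0-p1. Symbols were taken from GENCODE M21 by gene identifier, which named 99.8% of the rows (99.3% with the same version). Poly-A priming and full-length amplification can make counts depend on RNA quality and gene length.

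Members and gene lists were chosen with earlier results of these data known. Counts were tested with edgeR 4.0.16 in R 4.3.3 (TMM factors, filterByExpr with minimum count 10 and minimum total 15, 16567 genes tested, quasi-likelihood F test), in 1 fit of all 15 libraries, with Benjamini-Hochberg adjustment over all genes and a threshold of 0.05. Tests are two-sided and intervals cover 95%. Normalised counts are counts divided by size factors, and log2 CPM use a prior count of 2. The scripts were tested on simulated data. Genes were named by a rule: Ndufa10, all members past the adjusted threshold in edgeR, the 5 smallest unadjusted p in each direction of each comparison, the highest and lowest per kilobase in each role, and the smallest p of each pathway list. Ndufa3, Ndufa7, the effects of members named for their level only, and other genes given outside this rule were chosen after their values were seen. The values of 1 member are not reported here by name, and it enters the counts and medians only.

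Alternatives were DESeq2 1.42.0 (15 libraries or 2 groups), edgeR on 2 groups, median-of-ratios factors, other filters, removal of smooth trends on gene length or GC content (lowess, span 0.3), a skeletal muscle score as covariate, thinning to the lowest total and each library left out in turn. An erythroid score as covariate, and leaving out RvD6 8 and 9, were added after the data had been seen. Pairs of libraries within a group differed by 11.3 to 49.2 in chi-square per degree of freedom over 30 pairs, so none was the same library sequenced again. Separate libraries made from the same ganglion would not be recognised by this measure. Promoter windows are from RefSeq (GRCm38.p6), and were read with Python 3.11.15.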

Additional observations from a re-analysis of the deposited data

Results flagged for a closer look

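In each group of 5 libraries, a library was singled out when its gap to the nearest other library was, as a share of the group's range, above Dixon's 95% limit. Chance gives about 1 such group in 20, and 84 groups were examined, of which 4 passed. Ndufa10 was low in RvD6si 11, at a normalised count of 2500.4, while the other 4 RvD6si libraries lay between 2980.2 and 3099.7. Ndufaf5, an assembly factor, was high in RvD6 6, at 711, with the other 4 RvD6 libraries between 395 and 413. Ndufaf2 was low in RvD6 7, at 125, with the others between 157 and 170.1. Ndufa4l2, which was below the filter on low counts, stood at 2.88 in vehicle 1, with the others between 0.802 and 0.984.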

How the results depend on the processing

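DESeq2 called 7 members lower in RvD6si than in vehicle with all 15 libraries and 8 with the 2 groups compared, and 1 in RvD6 with either, where edgeR called 0. edgeR called 1 in RvD6si when each gene needed at least 10 counts in every library, and 1 with the trend on GC content removed. On 15 libraries DESeq2 called 3.3% of all genes lower and 4.82% higher in RvD6si, and 0.479% and 1.44% in RvD6. For the other settings with calls, and with 1 library left out, the share of all genes called is not given here. Those counts therefore stand without a background. With the trend on gene length removed, 1 member in place of 2 was separate in RvD6, where the share of all genes was not computed. At an unadjusted p under 0.05, removing that trend gave 13 lower and 1 higher in RvD6si (22 lower as reported). It gave 4 lower in RvD6 (8 as reported), and 1 lower and 1 higher between the lipids (1 lower as reported). For RvD6, DESeq2 on 2 groups gave 15 lower (all genes 4.09% lower) and the muscle covariate 5 (3.13%). The erythroid covariate gave 24 lower (5.15%), with a median log2 fold change of -0.46. Between the lipids, testing without a filter gave 1 lower and 1 higher (all genes 5.88% lower and 4.34% higher). Removing the GC trend gave 2 lower and 0 higher (4.7% and 4.37%). The erythroid covariate gave 0 lower and 2 higher (2.67% and 1.69%), the direction opposite to that reported. The count was 0 with the muscle covariate (2.84% and 3.54%) or without RvD6 8 and 9 (4.24% and 4.8%). The median with the erythroid covariate was 0.12. Some values near 0 changed sign. For RvD6si minus vehicle, Ndufs1 went to -0.11 with the length trend removed and -0.0422 with the erythroid covariate. For RvD6 minus vehicle, Ndufaf4 went to -0.10 (GC), -0.27 (muscle) and -0.20 (without RvD6 8 and 9), Ndufaf8 to -0.51 (muscle), -0.40 (erythroid) and -0.30 (without RvD6 8 and 9), and Ndufab1 to -0.0013 (2 groups), -0.0085 (no filter), -0.10 (length), -0.0453 (GC), -0.21 (muscle), -0.0698 (erythroid) and -0.0809 (without RvD6 8 and 9). For RvD6si minus RvD6, the erythroid covariate gave 0.0740 for Ndufs7, 0.0442 for Ndufaf6 (0.0933 with muscle), -0.13 for Ndufaf1 and -0.11 for Ndufs1. Apart from the settings whose construction shows it, the cause was not tested. Leaving out 1 library at a time gave 14 to 27 members for RvD6si, 4 to 12 for RvD6 and 1 to 4 between the lipids at an unadjusted p under 0.05, 0 to 1 called for RvD6si and 0 for the others, and medians of -0.44 to -0.29, -0.30 to -0.20 and -0.23 to -0.03. The share of all genes lower at that unadjusted p in these fits was 5.35% to 7.98% for RvD6si and 4.15% to 7.1% for RvD6. Between the lipids 3.65% to 6.61% of all genes were lower and 3.19% to 5.33% higher. There 1 member was higher without RvD6 6 and 1 without RvD6si 15, and the rest of the members counted were lower. The values that changed sign there were Ndufs1 (-0.0728 to 0.13) and Ndufa8 (-0.0522 to 0.0701) in RvD6si, and Ndufab1 (-0.0907 to 0.0852), Ndufaf4 (-0.11 to 0.15) and Ndufaf8 (-0.11 to 0.18) in RvD6. No paired analysis was possible because the groups share no replicate numbers. With SE of 0.13 to 0.31 on the log2 scale, depth and 5 libraries a group limit the detection of small differences.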
